A study of Mus musculus with 6 samples.

Results

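Methionine and one-carbon metabolism was followed in mouse liver through 10 genes chosen by name: Mat1a, Mat2a, Gnmt, Bhmt, Ahcy, Cbs, Cth, Nnmt, Pemt and Shmt1. They were looked up by gene symbol among the 55385 genes of a count table, and all 10 were found and passed the filter on low counts that left 14454 genes for testing. The livers came from 6 male C57BL/6 mice on a high-fat diet. Of these, 3 had undergone vertical sleeve gastrectomy (VSG, removal of most of the stomach) and 3 a sham operation. Per the labels, mice of 6 to 8 weeks of age received the diet for 10 weeks, were operated on and stayed on the same diet for another 12 weeks, so the sham group is an operated control on the same high-fat diet and not a lean one. No lean or unoperated liver is among the 6 libraries. The feeding state and the time of day at collection are not given in the sources used here. Each library was poly(A)-selected RNA of 1 animal, with 22804397 to 24191778 counted reads.

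Methionine is activated to S-adenosylmethionine, the methyl donor of the cell, by methionine adenosyltransferase. Methyltransferases pass the methyl group on and leave S-adenosylhomocysteine, which is split to homocysteine. Homocysteine is either methylated back to methionine, with a methyl group from betaine or from folate, or is used up through transsulfuration to cysteine. The liver carries most of this traffic in the body, and it strongly expresses betaine-homocysteine methyltransferase and glycine N-methyltransferase.

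In these livers Nnmt and Cbs were expressed at a higher level after VSG and Bhmt at a lower level. Nnmt, which encodes the enzyme that methylates nicotinamide with S-adenosylmethionine, rose 2.50-fold. Cbs, which encodes the enzyme that commits homocysteine to transsulfuration, rose 1.76-fold. Bhmt, whose product remethylates homocysteine with betaine, fell, and its level was 2.17-fold higher in sham than in VSG livers. These 3 of the 10 genes had an adjusted p under 0.05 in edgeR's quasi-likelihood test, with the Benjamini-Hochberg adjustment over all genes tested, against a background of 14.7% of all tested genes called in either direction. By direction, 2 of the 10 were higher (background 6.79%) and 1 was lower (background 7.87%). The median log2 fold change of the 10 genes was -0.13, beside 0.03 over all tested genes. Levels of the 3 VSG and the 3 sham libraries did not overlap for 4 of the 10 genes, which is close to the background of 39.6%. The same 4 had an unadjusted p under 0.05 (background 33.9%). The count of 3 called genes fell when single libraries were left out. It was 2 without sham replicate 2, and 1 (Nnmt) without sham replicate 3, VSG replicate 4 or VSG replicate 6. The count over all tested genes also fell in these fits, from 2118 to 797, 159, 1076 and 210 in that order.

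**Figure D1:**
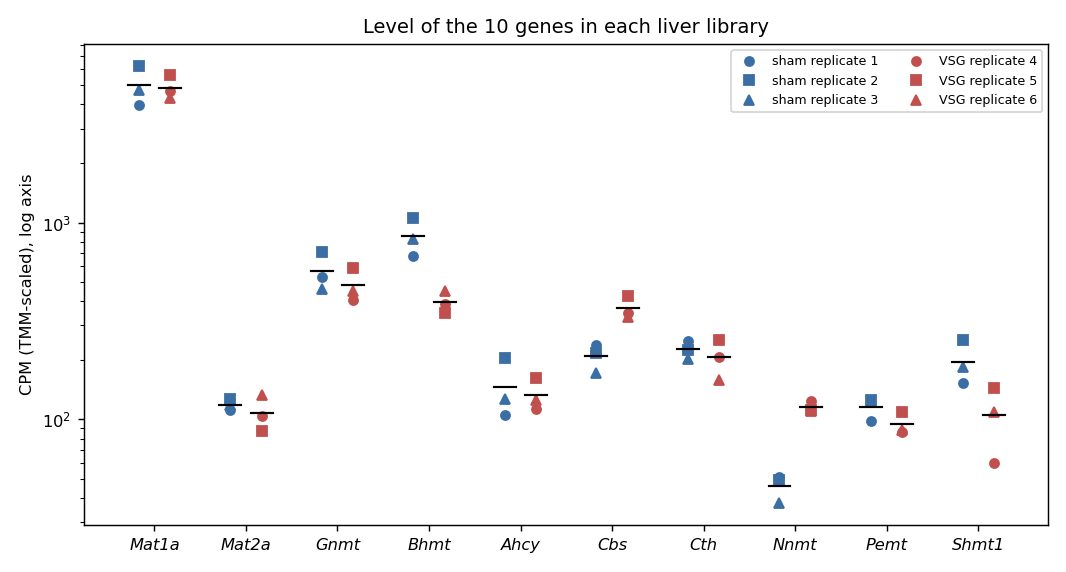
Level of each of the 10 genes in the 3 sham libraries (blue) and the 3 VSG libraries (red) (symbols give the replicate), in TMM-scaled counts-per-million (CPM) on a log axis, with a black bar at the mean of each group. For Nnmt and Cbs all red points lie above the blue ones, for Bhmt and Shmt1 all lie below, and for the other 6 genes the groups overlap.

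The level of each gene is given below in CPM, counts-per-million after scaling with TMM factors, a correction for differences in RNA composition between libraries. Nnmt was at 51.1, 49.5 and 37.6 CPM in the sham group and at 123, 112 and 111 CPM in the VSG libraries. Every VSG library was above every sham library, and the spread within each group was small beside the gap between them. Its mean was 46.1 ± 7.36 CPM (SD, n = 3) after sham operation and 115 ± 7.02 CPM after VSG, with a log2 fold change of 1.32 (SE 0.140, 95% interval 0.99 to 1.66) and an edgeR adjusted p of 0.00645. Nnmt (ENSMUSG00000032271.13) is encoded on chromosome 9 (48591877 to 48605153, minus strand, GRCm38, the assembly of mm10) in 4 merged exon blocks. It was past the threshold under all 13 alternatives tried, with a log2 fold change from 1.19 to 1.53 and an adjusted p of up to 0.0387, the latter without VSG replicate 6.

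Bhmt was at 677, 1057 and 822 CPM in the sham group and at 386, 346 and 448 CPM in the VSG libraries. Every VSG library was below every sham library. The log2 fold change was -1.12 (SE 0.210, 95% interval -1.61 to -0.62) with an edgeR adjusted p of 0.0218. The call was lost without sham replicate 3 (adjusted p 0.0929), without VSG replicate 4 (0.0535) and without VSG replicate 6 (0.0744), while the log2 fold change stayed between -1.26 and -0.90. Bhmt (ENSMUSG00000074768.6, chromosome 13, 93616675 to 93637961, minus strand) has near-identical copies in the genome. Its transcript matched Gm5096 at 99.4% over 1869 bases and Bhmt-ps1 at 98.9% over 1224 bases. How reads that fit several copies were counted is not stated, so the level of Bhmt is uncertain to that extent. Gm5096 held 38 to 104 counts per library, against 8104 to 23145 for Bhmt, and its log2 fold change was -1.11 (adjusted p 0.0190).

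Cbs was at 238, 217 and 171 CPM in the sham group and at 346, 425 and 332 CPM in the VSG libraries. The groups did not overlap, and the spread within each of them was smaller than the difference between their means. The log2 fold change was 0.82 (SE 0.174, 95% interval 0.40 to 1.23) with an edgeR adjusted p of 0.0293. This call was lost in 5 of 13 alternatives, namely on leaving out sham replicate 2 (adjusted p 0.0766) or 3 (0.122) or VSG replicate 4 (0.0520) or 6 (0.0832), and on scaling to total counts (0.0646). The direction was the same in all 13, with values from 0.68 to 0.99. Cbs (ENSMUSG00000024039.15, chromosome 17, 31608894 to 31637238, minus strand) spans 21 merged exon blocks. Cth, the enzyme of the next step, which releases cysteine from cystathionine, was at 251, 226 and 203 CPM after sham operation and at 208, 253 and 159 CPM in VSG libraries. These values overlapped (log2 fold change -0.13, 95% interval -0.58 to 0.32, adjusted p 0.650), and the log2 fold change turned to 0.03 without VSG replicate 6.

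Shmt1, the cytosolic serine hydroxymethyltransferase that moves a carbon unit from serine to folate, was at 152, 252 and 184 CPM in the sham libraries. In the VSG libraries it was at 59.8, 145 and 109.7 CPM, with replicate 4 far below the others. The groups did not overlap, but their nearest libraries lay close together. The log2 fold change of -0.90 (SE 0.339, 95% interval -1.71 to -0.10) had an unadjusted p of 0.0332 and an adjusted p of 0.115, so the gene did not pass. DESeq2 was the only alternative of 13 to put it under the threshold (adjusted p 0.0456). Without VSG replicate 4 the log2 fold change was -0.62. Of the Shmt1 exons, 184 bases lie opposite exons of Smcr8, which had 1205 to 1473 counts per library.

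The sequences before the start sites of Bhmt, Cbs and Shmt1 are shown because these are the genes with non-overlapping groups for which the RefSeq promoter table (GRCm38.p6) had an entry. It held windows for 7 of the 10 genes. Mat1a, Cth and Nnmt had none. Each window runs from 250 bases before to 50 bases after the RefSeq start site, 5′ to 3′ on the minus strand, and lies at chr13:93637709-93638008 (Bhmt), chr17:31637156-31637455 (Cbs) and chr11:60811216-60811515 (Shmt1). Capitals mark matches on either strand to the letters of 6 motifs: the TATA box (TATAAA), the CCAAT box (CCAAT), the GC box (GGGCGG), the E-box (CACGTG), a C/EBP-type motif (TTGCNNAA) and a STAT-type motif (TTCNNNGAA).
Bhmt: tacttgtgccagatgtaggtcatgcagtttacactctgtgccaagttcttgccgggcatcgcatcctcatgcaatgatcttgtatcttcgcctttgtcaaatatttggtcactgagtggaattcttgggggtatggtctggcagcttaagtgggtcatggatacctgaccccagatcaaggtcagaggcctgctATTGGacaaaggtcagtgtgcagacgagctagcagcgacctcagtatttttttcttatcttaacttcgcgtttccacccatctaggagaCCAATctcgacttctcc
Cbs: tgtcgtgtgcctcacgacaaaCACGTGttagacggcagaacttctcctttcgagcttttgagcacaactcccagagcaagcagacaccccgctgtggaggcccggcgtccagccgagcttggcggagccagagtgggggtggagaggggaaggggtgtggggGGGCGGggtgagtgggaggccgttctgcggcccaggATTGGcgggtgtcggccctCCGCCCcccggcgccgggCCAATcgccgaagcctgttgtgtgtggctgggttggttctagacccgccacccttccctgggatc
Shmt1: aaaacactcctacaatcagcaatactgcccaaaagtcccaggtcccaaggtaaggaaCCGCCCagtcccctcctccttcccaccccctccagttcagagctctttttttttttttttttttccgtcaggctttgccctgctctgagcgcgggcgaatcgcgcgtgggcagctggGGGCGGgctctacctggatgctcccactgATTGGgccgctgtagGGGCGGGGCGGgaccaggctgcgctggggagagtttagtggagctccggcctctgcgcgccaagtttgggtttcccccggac

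All 3 windows held CCAAT, which 37.4% of the 32851 promoter windows in the table hold. The Cbs and Shmt1 windows also held GGGCGG, found in 35.7% of windows, with matches that overlap in Shmt1. Cbs also held CACGTG, found in 7.15%. None of the 3 held TATAAA (13.6% of windows), TTGCNNAA (10.8%) or TTCNNNGAA (8.30%). The GC content was 48.0% in Bhmt, 66.7% in Cbs and 60.7% in Shmt1, beside a median of 52.7% over all windows, with 8, 22 and 17 CG dinucleotides. The RefSeq start sites lie 203, 33 and 453 bases from the GENCODE M21 gene starts, and the GENCODE start of Shmt1 lies outside its window. The matches are letters in a window and were not tested as binding sites.

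The remaining genes of the methionine cycle did not pass the threshold. Mat1a encodes the catalytic subunit of methionine adenosyltransferase of adult liver, and Mat2a the subunit of other tissues and of growing hepatocytes. Mat1a, which had the highest level of the 10 genes per length, was at 3955, 6247 and 4718 CPM after sham operation and at 4641, 5606 and 4269 CPM in VSG libraries. Mat2a, whose exons share 508 bases with the opposite-strand gene Particl (13 to 42 counts), was at 111, 127 and 119 CPM after sham operation and at 104, 87.0 and 133 CPM in VSG libraries. For both genes the VSG values overlapped those of sham, with log2 fold changes of -0.04 (95% interval -0.68 to 0.60, adjusted p 0.931) for Mat1a and -0.14 (-0.53 to 0.26, adjusted p 0.586) for Mat2a. Mat1a turned to 0.15 without sham replicate 2 and to 0.04 without VSG replicate 6. The ratio of Mat1a to Mat2a, taken per length in FPKM, was 45.9, 63.8 and 51.4 in the sham group and 57.7, 83.3 and 41.4 in the VSG libraries. On the log2 scale it was 5.73 ± 0.24 (SD, n = 3) after sham operation and 5.87 ± 0.50 in VSG livers, a difference of 0.13 that was smaller than the spread and turned to -0.12 without VSG replicate 5 (exact two-sided permutation p 0.7, where 0.1 is the smallest that 3 against 3 libraries allow).

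Gnmt encodes glycine N-methyltransferase, which buffers excess S-adenosylmethionine. It was at 526, 712 and 458 CPM after sham operation and at 404, 589 and 451 CPM in VSG libraries. The groups overlapped (log2 fold change -0.23, 95% interval -0.77 to 0.31, adjusted p 0.495). Pemt, which methylates phosphatidylethanolamine to phosphatidylcholine in the liver, was at 98.1, 126 and 123 CPM after sham operation and at 86.7, 109 and 88.3 CPM in VSG libraries. Only VSG replicate 5 reached into the range of the sham libraries, and the log2 fold change of -0.29 (95% interval -0.63 to 0.06, adjusted p 0.209) did not pass. Ahcy, which splits S-adenosylhomocysteine, was at 106, 206 and 127 CPM after sham operation and at 113, 162 and 126 CPM in VSG libraries. It did not pass either (log2 fold change -0.13, 95% interval -0.77 to 0.51, adjusted p 0.754), and its sign turned to 0.19 without sham replicate 2. The transcript of Ahcy matched Gm4737, Gm9826 and Gm5638 at 94.5% or more over 1128 or more bases, and none of these copies exceeded 14 counts in a library.

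**Figure D2:**
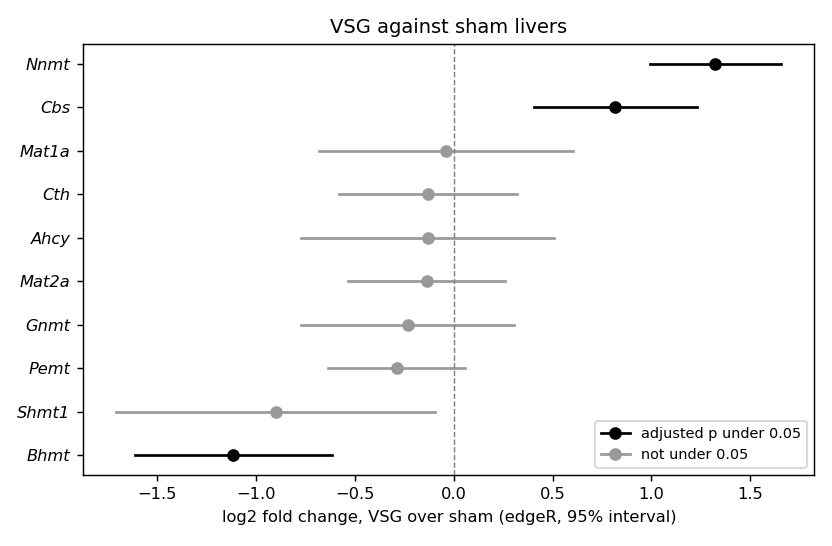
Log2 fold change of the 10 genes, VSG over sham, from edgeR with 95% intervals. Black marks an adjusted p under 0.05 (Nnmt, Cbs and Bhmt) and grey the genes that did not pass, of which Shmt1 has an interval below 0 before adjustment for multiple tests and the other 6 have intervals that span 0.

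The products of Nnmt and Gnmt both spend S-adenosylmethionine on small molecules, and the 2 genes were also read as a ratio. Per length, Nnmt was at 0.0743, 0.0531 and 0.0628 of the level of Gnmt in the sham libraries. In the VSG libraries it was at 0.234, 0.145 and 0.188 of that level, so the ratio was higher in every VSG library than in every sham library. The difference was 1.56 on the log2 scale (exact two-sided permutation p 0.1, the smallest possible here), and it stayed between 1.39 and 1.74 when any 1 library was left out. Most of it was the change of Nnmt itself (log2 fold change 1.32), as Gnmt was at -0.23 and did not pass (edgeR adjusted p 0.495).

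Compared per length, the order of the mean levels differed between the groups, which is given as a description. In sham livers mean FPKM values were 1434 for Mat1a, 469 for Gnmt, 148 for Bhmt and 81.3 for Cth, followed by Pemt (54.9), Ahcy (52.0) and Shmt1 (50.5), then Nnmt (29.2), Cbs (27.9) and Mat2a (26.5). Pemt, Ahcy and Shmt1 differed among themselves by less than their spread over libraries (SD 7.21, 18.8 and 13.1). Nnmt, Cbs and Mat2a also stood close together (SD 4.67, 4.56 and 1.70). In VSG livers Cth (74.2), Nnmt (73.2) and Bhmt (68.3) stood close together behind Mat1a (1395) and Gnmt (399), with SDs of 16.9, 4.45 and 8.88. Cbs (49.2), Ahcy (47.5) and Pemt (44.9) came next, and Shmt1 (27.0) and Mat2a (24.1) were lowest. Nnmt went from the third lowest of the 10 genes to the fourth highest.

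Within each group, 1 library was the highest for most of the 10 genes. Sham replicate 2 was the highest sham library for 7 of them (Mat1a, Mat2a, Gnmt, Bhmt, Ahcy, Pemt and Shmt1) and the lowest for 0, while it was the highest for 40.9% and the lowest for 36.5% of all tested genes. VSG replicate 5 was the highest VSG library for 7 (Mat1a, Gnmt, Ahcy, Cbs, Cth, Pemt and Shmt1), beside 35.99% of all tested genes. The coefficient of variation within a group was lowest for Nnmt in VSG livers (6.08%) and highest for Shmt1 in VSG livers (40.8%). Summed over the 10 genes the level was 6166 to 9218 CPM after sham operation and 6226 to 7835 CPM in VSG libraries, with sham replicate 2 at the top. The sum was 605 CPM lower on average in VSG livers, and without sham replicate 2 it was 280 CPM higher, so the direction of the sum rested on that library. Mat1a alone made up 3955 to 6247 CPM of the sum in sham libraries and 4269 to 5606 CPM in VSG libraries. The sum thus mostly follows Mat1a, whose sign turned in the same fit.

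Markers of cell types were read beside these values, since in bulk RNA fewer cells of a type and less RNA per cell cannot be told apart. The defining hepatocyte genes, Alb and Apoa1 among them, were present in every library. The summed level of 8 hepatocyte markers was 73352, 109671 and 75155 CPM in the sham group and 57097, 86205 and 85932 CPM in the VSG libraries, so it too was highest in sham replicate 2, and VSG replicates 5 and 6 were nearly equal. With edgeR 0 of the 8 markers passed (2 at an unadjusted p under 0.05, both lower), with DESeq2 2 and with limma-voom 0. Alb alone made up 50651, 81767 and 51788 CPM of the summed level in the sham group and 35785, 57577 and 56379 CPM in the VSG libraries. Scaling to the sum is therefore mostly scaling to Alb. When libraries were scaled to this sum in place of TMM, an alternative added after seeing the data, Nnmt (log2 fold change 1.53, adjusted p 0.00402), Cbs (0.99, adjusted p 0.0410) and Bhmt (-0.90, adjusted p 0.0445) were all past the threshold. Under that scaling the median log2 fold change of all tested genes was 0.21, and relative to it Nnmt and Cbs stayed above and Bhmt below.

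Genes of other cells and states also differed between the groups. All 9 neutrophil and precursor markers were higher after VSG, with sums of 2.602 to 14.3 CPM after sham operation and 147 to 1818 CPM in VSG libraries. Of 6 macrophage markers 3 were higher, with sums of 322 to 675 CPM after sham operation and 695 to 2064 CPM in VSG libraries. The 3 were Clec4f, Vsig4 and Marco, while Adgre1, Cd5l and Csf1r did not pass in edgeR (adjusted p 0.308, 0.188 and 0.0766). Marco alone gave 26.7, 6.30 and 3.91 CPM of the sums in sham libraries and 687, 101 and 366 CPM in VSG libraries. All 10 acute phase genes, which hepatocytes raise in inflammation, were higher, with sums of 9869 to 11765 CPM after sham operation and 88679, 30837 and 70021 CPM in VSG replicates 4, 5 and 6. These counts fell when single libraries were left out, as did the count over all tested genes. The 10 acute phase calls became 6, 4 and 0 on leaving out sham replicate 1, 2 or 3 and 7 and 2 on leaving out VSG replicate 4 or 6, with 9 in limma-voom. The 9 neutrophil calls became 1 on leaving out sham replicate 2 or 3 or VSG replicate 6, with 3 in limma-voom. The 3 macrophage calls became 0 without any of these same libraries and 1 without VSG replicate 4. All 10 acute phase and all 9 neutrophil genes had an unadjusted p under 0.05 in each of these edgeR fits. Periportal and pericentral hepatocyte markers had 1 of 8 lower each (Hsd17b13 and Lect2; 3 and 2 in DESeq2), with sums of 3872 to 4351 against 2973 to 3921 CPM and of 6668 to 16716 against 5058 to 12082 CPM. Both calls were lost without sham replicate 3 and without VSG replicate 6, the pericentral one also without sham replicate 2 or VSG replicate 4, and the periportal one with scaling to hepatocyte markers. Of the other lists, 1 of 5 tested B and plasma cell markers (Jchain) and 1 of 5 cholangiocyte markers (Sox9) were higher, the latter lost in limma-voom and in 4 of the 6 fits without a library. Of 6 stellate cell markers 1 was lower in edgeR (Reln), with 5 lower at an unadjusted p under 0.05, 4 in DESeq2 and 1 in limma-voom, and 0 passed on leaving out sham replicate 1 or 3 or VSG replicate 6. Of 5 endothelial and 4 tested T and NK cell markers 0 passed in edgeR, DESeq2 or limma-voom (0 at an unadjusted p under 0.05 in edgeR). Of 4 erythroid markers 0 passed in edgeR (1 unadjusted) or limma-voom and 1 in DESeq2. The summed ranges were 5.31 to 7.27 CPM after sham operation and 26.8 to 31.4 CPM in VSG libraries for B and plasma cells, 223 to 271 and 225 to 283 CPM for endothelial cells, and 325 to 586 and 139 to 302 CPM for stellate cells. They were 4.46 to 5.52 and 3.50 to 10.03 CPM for T and NK cells, 57.6 to 253 and 73.4 to 199 CPM for cholangiocytes and 119 to 171 and 160.2 to 247 CPM for erythroid cells, and 0 markers were at 0 in every library. Genes of the mitochondrial genome held 5.79, 6.58 and 5.59% of the counts in sham libraries and 4.14, 4.94 and 5.01% in VSG libraries. The part of these cells and states, and of this share, in the changes of Nnmt, Cbs and Bhmt was not tested.

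The wider pathway was described with 112 other genes in 9 lists, of which 111 were tested. At an adjusted p under 0.05, 15 of them were lower after VSG and 1 was higher, shares of 13.5% and 0.901% beside backgrounds of 7.87% and 6.79%. Their median log2 fold change was -0.28, beside 0.03 over all tested genes. This count fell when single libraries were left out. Without sham replicate 3, 0 of 111 passed (32 at an unadjusted p under 0.05), as did 0 without VSG replicate 6 (38 unadjusted). It was 7 without sham replicate 2 and 7 without VSG replicate 4. Over all tested genes the calls fell too, from 2118 to 159, 210, 797 and 1076 in that order. The median log2 fold change of the 111 genes was -0.33 without sham replicate 3 and -0.32 without VSG replicate 6. DESeq2 called 36 (6 higher, 30 lower) and limma-voom 15. With libraries scaled to hepatocyte markers 4 passed (1 higher, 3 lower), and with total counts 30 did (1 higher, 29 lower). The paragraphs on the lists name 15 of the 16 called genes by a rule of size, and none of these calls held in every fit. Leaving out sham replicate 3 or VSG replicate 6 ended all 15. Of the same 15, 6 were lost on leaving out sham replicate 1 (Mthfd1l, Srr, Gclc, Sqor, Sirt1 and Mettl7a1) and 9 on leaving out sham replicate 2 (Mmadhc, Srr, Gclc, Sqor, Nmnat1, Nadk, Aox1, Sirt1 and Mettl7a1). Leaving out VSG replicate 4 ended 8 (Mmadhc, Mthfd1l, Srr, Gclc, Sqor, Ethe1, Nmnat1 and Mettl7a1) and VSG replicate 5 ended 1 (Mthfd1l), so that Suox, Pcyt1a, Chpt1 and Hnmt passed in those 4 fits. Scaling to hepatocyte markers ended 13, with Aox1 (adjusted p 0.00220) and Hnmt (0.0131) still past the threshold.

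**Figure D3:**
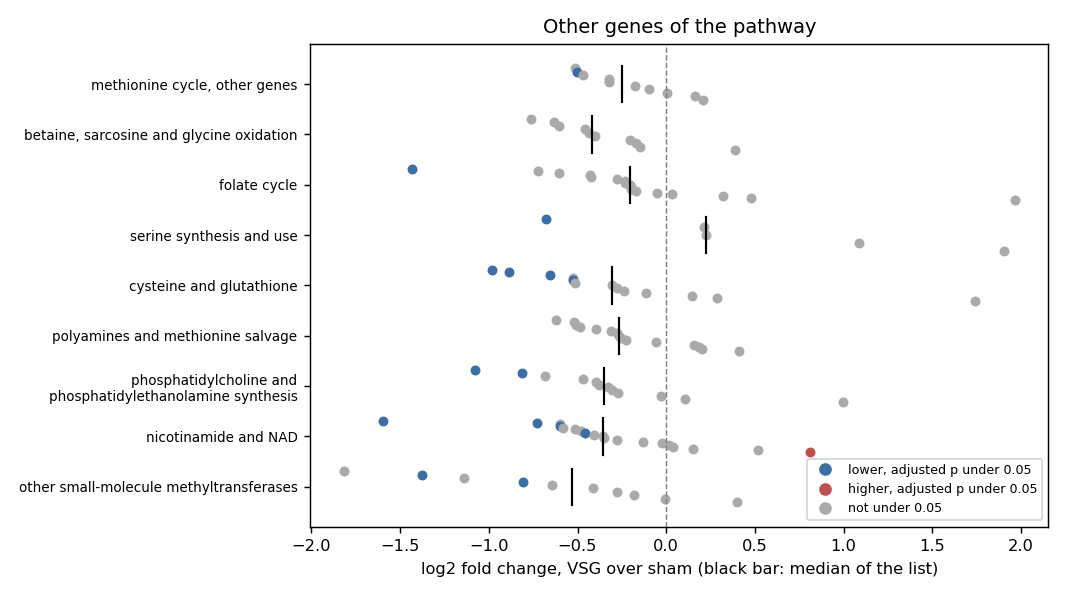
Log2 fold change, VSG over sham, of the 111 tested genes in 9 lists of the wider pathway. Each point is a gene, blue for the 15 lower and red for the 1 higher at an adjusted p under 0.05 and grey for the rest, and the black bar, the median of the list, lies below 0 in 8 of the 9 lists and above 0 for serine synthesis and use.

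Nnmt draws on nicotinamide, the precursor that the salvage route returns to NAD. Of 19 genes of nicotinamide and NAD metabolism, 4 were lower and 1 was higher, which became 1 and 0 with libraries scaled to hepatocyte markers. Aox1, an aldehyde oxidase that oxidises methylated nicotinamide among other substrates, fell from 174 ± 17.5 to 57.6 ± 22.6 CPM (log2 fold change -1.59, adjusted p 0.0216). Nadk, the cytosolic NAD kinase, fell by 0.73 on the log2 scale (adjusted p 0.0238), and Nmnat1, which makes NAD in the nucleus, fell by 0.60 (adjusted p 0.0346). Sirt1, an NAD-dependent deacetylase, rose from 15.5 ± 0.675 to 27.2 ± 5.33 CPM (log2 fold change 0.81, adjusted p 0.0217). The gene of the list that was most abundant per length (the sense of most abundant here and for the lists that follow) and did not pass was Tdo2, the tryptophan dioxygenase, at 1627 ± 402 CPM after sham operation and 1276 ± 252 CPM after VSG (adjusted p 0.357). The fourth lower gene, named after its values were seen, was Qprt, which feeds NAD synthesis from tryptophan (log2 fold change -0.46, adjusted p 0.0319).

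Other methyltransferases of small molecules gave 2 lower genes of 10. Hnmt, the histamine N-methyltransferase, fell from 54.3 ± 0.762 to 20.9 ± 4.998 CPM (log2 fold change -1.38, adjusted p 0.00934). Mettl7a1, a methyltransferase-like protein, fell by 0.81 (adjusted p 0.0434). Mettl7b was the most abundant that did not pass, at 496 ± 45.2 CPM after sham operation and 317 ± 103 CPM after VSG (adjusted p 0.115). DESeq2 called 4 lower, and edgeR without VSG replicate 5 called 5. As higher, 0 of these 10 passed in edgeR, DESeq2 or limma-voom, with 1 at an unadjusted p under 0.05 in edgeR and 1 past the threshold without sham replicate 2.

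Downstream of Cbs and Cth, 4 of 13 genes of cysteine and glutathione metabolism were lower and none was higher in edgeR (1 higher at an unadjusted p under 0.05, 1 with DESeq2 and 0 with limma-voom). With libraries scaled to hepatocyte markers 0 were lower and 1 was higher. Gclc, the catalytic subunit of the rate-limiting enzyme of glutathione synthesis, fell from 470 ± 23.5 to 238 ± 73.7 CPM (log2 fold change -0.98, adjusted p 0.0369). Suox, the sulfite oxidase, fell by 0.89 (adjusted p 0.0176). Ethe1 and Sqor, of mitochondrial sulfide oxidation, fell by 0.66 (adjusted p 0.0218) and 0.52 (adjusted p 0.0283). Cdo1, which oxidises cysteine and was the most abundant that did not pass, was at 1454 ± 375 CPM after sham operation and 1772 ± 116 CPM after VSG and did not pass (adjusted p 0.406).

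Around Pemt, 2 of 12 genes of phosphatidylcholine and phosphatidylethanolamine synthesis were lower, 6 with DESeq2 and 0 with libraries scaled to hepatocyte markers (3 at an unadjusted p under 0.05). Chpt1, which completes phosphatidylcholine by the choline route, fell from 405 ± 83.4 to 192 ± 13.9 CPM (log2 fold change -1.08, adjusted p 0.0166). Pcyt1a, the regulated enzyme of the same route, fell from 167 ± 17.1 to 94.98 ± 11.2 CPM (log2 fold change -0.81, adjusted p 0.0167). Pcyt2 was the most abundant that did not pass, at 273 ± 25.3 CPM after sham operation and 210.0 ± 43.7 CPM after VSG (adjusted p 0.186).

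Around Bhmt, no gene of betaine, sarcosine and glycine oxidation passed in edgeR, and 9 of 10 had a negative log2 fold change, as did 47.6% of all tested genes. Of these 10 genes 4 had an unadjusted p under 0.05, all lower, near the background of 33.9%, and 1 did with scaling to hepatocyte markers. DESeq2 called 4, limma-voom 0, edgeR with total counts 4 and edgeR without VSG replicate 5 called 3. Dmgdh, which oxidises the dimethylglycine that Bhmt produces, was at 569 ± 143 CPM after sham operation and 336 ± 69.1 CPM after VSG (log2 fold change -0.76, adjusted p 0.0771). Among 10 other genes of the methionine cycle 1 was lower, Mmadhc, a carrier of cobalamin (log2 fold change -0.50, adjusted p 0.0353), a call lost in 4 of the 6 fits without a library and with scaling to hepatocyte markers (adjusted p 0.593). DESeq2 called 3 lower. Bhmt2, the neighbouring paralog of Bhmt, was at 244 ± 39.1 CPM after sham operation and 177 ± 11.1 CPM after VSG. The groups did not overlap, but Bhmt2 did not pass (log2 fold change -0.47, adjusted p 0.0759).

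In the folate cycle 1 of 17 genes was lower, Mthfd1l, the mitochondrial formyltetrahydrofolate synthetase, at 12.9 ± 4.57 CPM after sham operation and 4.75 ± 1.34 CPM after VSG (log2 fold change -1.44, adjusted p 0.0361). The call was lost in 5 of the 6 fits without a library, with limma-voom (adjusted p 0.0552) and with scaling to hepatocyte markers (0.157). Without VSG replicate 5 no gene of the list was lower and 1 was higher, and DESeq2 called 1 gene of the list higher and 2 lower. Aldh1l1, a folate dehydrogenase and the most abundant of the rest, did not pass (766 ± 127 against 668 ± 26.1 CPM, adjusted p 0.428). In serine synthesis and use 1 of 5 tested genes was lower, Srr, the serine racemase (log2 fold change -0.68, adjusted p 0.0391), a call lost in 5 of the 6 fits without a library and with scaling to hepatocyte markers (adjusted p 0.277). The other 4 tested genes had a positive log2 fold change, 2 of them with an unadjusted p under 0.05. DESeq2 called 2 higher, and without the filter on low counts 3 were higher. Sds, a serine dehydratase, did not pass (126 ± 62.5 against 148 ± 53.9 CPM, adjusted p 0.712). Phgdh, which starts serine synthesis, was the 1 gene too low to be tested (named for that, after its values were seen), with 0, 0 and 1 reads after the sham operation and 18, 5 and 6 reads after VSG. Of 15 genes of polyamines and methionine salvage 0 passed in edgeR (3 at an unadjusted p under 0.05, all lower), with 1 in DESeq2, 1 in edgeR with total counts and 0 in limma-voom. Adi1, of methionine salvage and the most abundant of these, was at 212 ± 33.5 CPM after sham operation and 138 ± 31.5 CPM after VSG (adjusted p 0.0895).

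The genes whose levels ran most like those of Nnmt over the 6 libraries were found by the distance between log2 CPM values centred on their mean, among 9957 other genes with a mean of at least 5 CPM and a count in every library. The 5 nearest were Akap17b (distance 0.24), Mug-ps1 (0.26), Plcxd2 (0.30), Gm16332 (0.33) and Arhgef10l (0.40). Their log2 fold changes lay between 1.11 for Arhgef10l and 1.33 for Plcxd2. The 6 libraries fall into 2 groups, so the likeness describes mainly a shared difference between the groups. Mug-ps1 and Gm16332 are pseudogenes, and reads of related genes could have been counted there.

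**Figure D4:**
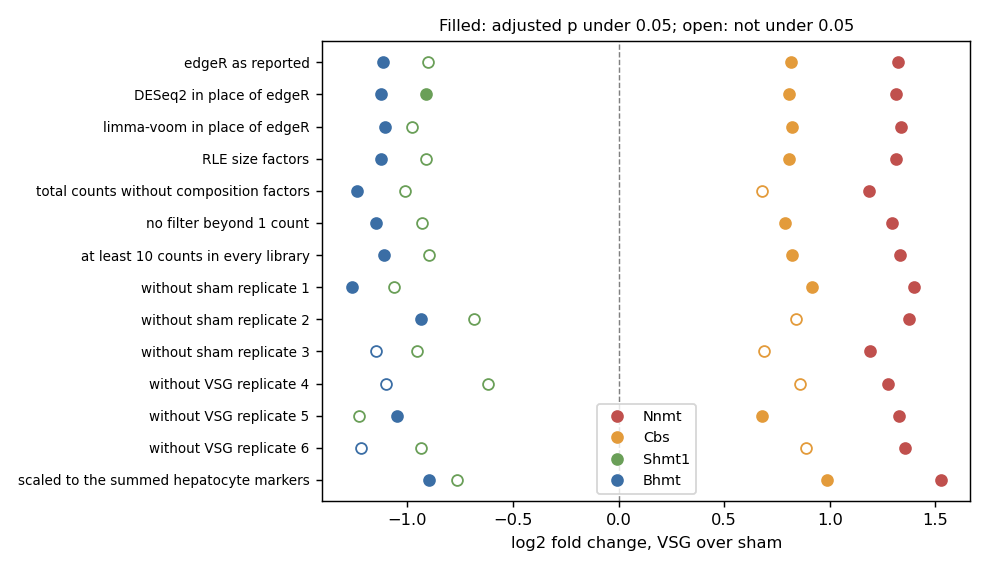
Log2 fold change, VSG over sham, of Nnmt, Cbs, Shmt1 and Bhmt (x axis) in the reported edgeR fit and under each of 13 alternatives (y axis). Filled points have an adjusted p under 0.05, which Nnmt has in all 14 fits, Bhmt in 11, Cbs in 9 and Shmt1 in the DESeq2 fit alone, and no point crosses 0.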

How the data were processed

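Liver RNA from 3 sham and 3 VSG mice was sequenced as strand-specific poly(A) libraries. Per the labels and the study's methods, the authors aligned reads with STAR 2.6.0 to mm10 after FastQC 0.10.1 and counted them per gene with featureCounts (2.0.3 in the submitters' processing notes), and the deposited values are raw read counts, 1 column per animal, not pooled. The annotation release and the options for strand and multi-mapping reads are not given in the sources used here, and reads of near-identical or overlapping genes can therefore be misplaced. Gene identifiers were named with GENCODE M21, where 54487 of 55385 matched with version and with the same start and end, and the exon length deposited with the counts gave the FPKM values (CPM per 1000 bases).

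Counts were tested with edgeR 4.0.16 (R 4.3.3; TMM factors 0.897 to 1.15, glmQLFit and glmQLFTest) after filterByExpr with a minimum count of 10 and a minimum total of 15, which left 14454 genes, with Benjamini-Hochberg adjustment over all of them. CPM used the total of the whole table, 22804397 to 24191778 reads, so that the limit set by 3 counts was 0.111 to 0.143 CPM and covers counting error only. The standard error was taken from the F statistic, and intervals are 95%. Ratios between genes were compared with exact two-sided permutation tests. The steps were tested on simulated counts. Copies were searched with blastn 2.17.0 (at least 90% identity over 500 bases).

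The 10 genes, the 9 pathway lists and the 12 marker lists (hepatocyte, pericentral and periportal hepatocyte, macrophage, neutrophil, B and plasma cell, T and NK cell, endothelial, stellate, cholangiocyte, erythroid and acute phase) were chosen with earlier results of these data known. From each pathway list up to 4 genes with an adjusted p under 0.05 and a mean of at least 1 CPM were named, by the largest absolute log2 fold change, with the gene of highest mean FPKM that did not pass. For the called gene of smallest adjusted p, 5 genes of at least 5 CPM with the nearest profile were named. Alternatives were DESeq2 1.42.0, limma-voom (limma 3.58.1), RLE factors, total counts, 2 other filters (none beyond 1 count in all, and at least 10 counts in every library), each library left out and, added after seeing the data, scaling to the summed hepatocyte markers.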

Additional observations from a re-analysis of the deposited data

How the results depend on the processing

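No paired analysis was possible because the sham libraries are numbered 1 to 3 and the VSG libraries 4 to 6, so the groups share no replicate number. The direction of Nnmt, Cbs, Bhmt, Shmt1, Gnmt and Pemt was the same in all 13 alternatives. For genes that did not pass, the sign turned without sham replicate 2 (log2 fold change 0.15 for Mat1a and 0.19 for Ahcy) and without VSG replicate 6 (0.044 for Mat1a and 0.027 for Cth); the cause was not tested. Leaving out a library gave -0.19 to 0.15 for Mat1a, -0.32 to 0.19 for Ahcy and -0.32 to 0.027 for Cth. Of the 10 genes, 1 to 3 passed when a library was left out, 2 with total counts and 4 with DESeq2. Of the 111 other pathway genes 16 passed in edgeR, 36 with DESeq2, 30 with total counts, 4 with scaling to hepatocyte markers and 0 to 24 when a library was left out. Over all genes tested, 2118 were called with edgeR, 3288 with DESeq2, 815 with scaling to hepatocyte markers and 159 to 2732 when a library was left out, the fewest on leaving out sham replicate 3 and the most on leaving out VSG replicate 5, with 210 without VSG replicate 6 and 797 without sham replicate 2. Fits without a library hold fewer samples. The share of calls that were higher was 46.3% with TMM, 24.3% with total counts and 60.4% with hepatocyte markers, and the median log2 fold change of all genes moved from 0.03 to -0.11 and 0.21. The latter shift carried Mat1a (0.17), Mat2a (0.043), Ahcy (0.085) and Cth (0.044) above 0 with scaling to hepatocyte markers, while all 4 stayed below that median. The log2 ratio of Mat1a to Mat2a differed by -0.12 to 0.38 and that of Nnmt to Gnmt by 1.39 to 1.74 when a library was left out. The summed level of the 10 genes differed by -1246 to 280 CPM (VSG minus sham), with -659 CPM for RLE factors and -1165 CPM for total counts. With 3 libraries per group, a difference that did not pass is not shown to be absent.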

Other observations

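Among the wider pathway genes that did not pass, some differed widely between the VSG libraries. They were chosen after their values were seen. Inmt, an indolethylamine N-methyltransferase, was at 161, 279 and 249 CPM in sham and at 10.8, 159 and 25.8 CPM in VSG libraries, with every VSG library below every sham library. Its log2 fold change of -1.82 had an interval from -3.98 to 0.34 and an edgeR adjusted p of 0.206. Gamt, which makes creatine with S-adenosylmethionine, was at 93.2, 146 and 114 CPM in sham and at 31.5, 66.3 and 62.1 CPM in VSG libraries, just outside the threshold (log2 fold change -1.14, adjusted p 0.0507).

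Mthfd2, of mitochondrial folate metabolism, and Psat1, of serine synthesis, were low in every library. Mthfd2 was at 2.32, 0.822 and 1.90 CPM in sham and at 13.2, 3.03 and 3.72 CPM in VSG libraries (log2 fold change 1.97, adjusted p 0.0893). Psat1 was at 2.73, 0.913 and 2.24 CPM in sham and at 14.2, 4.996 and 3.10 CPM in VSG libraries (log2 fold change 1.91, adjusted p 0.0906). For both genes VSG replicate 4 was far above the other libraries.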
